A study of Mus musculus with 16 samples.

Results

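Alb, Hpx, Plg and Pon1 encode proteins that the liver releases into blood plasma: albumin, the most abundant carrier of plasma; hemopexin, which binds free heme; plasminogen, the precursor of the clot-dissolving protease plasmin; and paraoxonase 1, an esterase carried on high-density lipoprotein. The members are every spot that the platform annotation gives one of these symbols, which is 5 of the 28704 spots of the array: 1 each for Alb, Hpx and Plg and 2 for Pon1. The arrays compared brain RNA of neonatal mice with a common reference made from pooled adult tissues of male and female C57BL mice, with aorta, brain, heart, kidney, liver, lung, gonads, spleen and stomach among them. There were 4 arrays for each of 4 genotypes: wild type (C57BL/6j), Cx43 null, Cx43 heterozygous and Cx32 null (all C57BL). Cx43 and Cx32 are connexins, the proteins that form gap junction channels between neighbouring cells. No treatment, and no allele beyond those named, is given in the labels, and neither is the number of animals behind a sample. A null allele in these lines is not restricted to a tissue by anything the labels say. For Cx32 null brain the age comes from the sample descriptions, since the titles leave it out.

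Hepatocytes make most plasma proteins and hold their transcripts at very high levels, under factors such as HNF1, HNF4, FOXA and C/EBP that bind near the start sites of these genes. Brain normally expresses little of them, apart from a few that choroid plexus or glia also make.

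Every value here is a log2 ratio of brain over reference, with the median of all spots of that array set to 0, or the difference of 2 group means on that scale. Neither log base nor numerator is stated, and folds assume log2. Brain over reference is the likely direction: a list of 12 measured neuronal genes had a median of 1.60 or more on all 16 arrays. Wild-type replicates 3 and 4 are labelled with the dye of the reference only. The labels of wild-type replicate 3 disagree on its number, and its title was followed. Arrays held 21010 to 24819 measured spots each. No pair of arrays correlated below 0, with the lowest r at 0.48 and the highest at 0.94. Wild-type replicate 1 stood apart. Its median local agreement with the other arrays, over each spot with its 50 neighbours on either side, was r = 0.64, against 0.84 or more on each other array. The median SD between arrays was 0.39 in wild type, 0.27 in Cx43 null, 0.20 in Cx43 heterozygous and 0.21 in Cx32 null brain. In whole brain RNA, fewer cells of a type and less RNA per cell cannot be told apart.

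RefSeq sequence before the start site was held for 3 of the 4 genes, and is shown because these factors act there and because the genes differ in it while sharing their tissue. The windows are the 250 bases before the start on build GRCm38.p6, printed 5′ to 3′ on the gene's strand. Capitals mark matches to 5 short motifs searched on both strands: GTTAAT (the core of an HNF1 site), CAAAGTC (an HNF4 core), TGTTTAC (a FOXA core), CCAAT (the CCAAT box) and TATAAA (the TATA box).
Alb, chr5:90460620-90460869, + strand: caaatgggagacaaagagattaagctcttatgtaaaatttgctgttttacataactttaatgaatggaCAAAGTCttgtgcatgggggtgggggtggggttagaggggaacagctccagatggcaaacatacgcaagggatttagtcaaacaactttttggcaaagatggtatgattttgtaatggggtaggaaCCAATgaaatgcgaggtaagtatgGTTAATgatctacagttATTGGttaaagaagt
Hpx, chr7:105600117-105600366, - strand: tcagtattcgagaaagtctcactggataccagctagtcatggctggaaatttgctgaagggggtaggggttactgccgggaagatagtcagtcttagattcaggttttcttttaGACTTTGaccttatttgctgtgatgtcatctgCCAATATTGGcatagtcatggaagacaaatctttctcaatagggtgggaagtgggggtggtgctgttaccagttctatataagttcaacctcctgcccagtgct
Pon1, chr6:5193947-5194196, - strand: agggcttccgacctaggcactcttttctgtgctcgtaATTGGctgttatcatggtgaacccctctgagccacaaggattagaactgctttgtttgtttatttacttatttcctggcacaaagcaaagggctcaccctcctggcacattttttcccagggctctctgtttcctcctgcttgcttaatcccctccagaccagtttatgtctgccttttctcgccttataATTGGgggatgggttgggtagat
In the Alb window GTTAAT lay at -32 to -27 from the start, CAAAGTC at -182 to -176, and CCAAT at -56 to -52 and, on the opposite strand, at -15 to -11. In the Hpx window CCAAT lay at -104 to -100 and, on the opposite strand, directly after it at -99 to -95. The Hpx window also held CAAAGTC on the opposite strand at -136 to -130. The Pon1 window held 2 matches, both CCAAT on the opposite strand, at -213 to -209 and -23 to -19. Neither TATAAA nor TGTTTAC was found in the 3 windows. GTTAAT stood in 6.4% of the 32851 mouse promoter windows of this length and in 27.0% of the 89 windows of the wider plasma protein lists used here. The other shares, in all windows and in the plasma windows, were 3.8% and 3.4% for CAAAGTC, 33.8% and 30.3% for CCAAT, 12.4% and 16.9% for TATAAA, and 3.2% and 7.9% for TGTTTAC. A match is a description of letters and no evidence of binding.

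All 66 values of the member spots were below 0, of 80 possible, and the other 14 cells were empty. Over the mean of the 4 group means, Hpx ranked 9th, Pon1 17th, Alb 19th and Plg 90th from the lowest of 14292 transcripts. These ranks are of ratios to the reference and not of abundance in brain. The mean over the arrays with a value was -4.99 for Alb, -5.52 for Hpx, -3.47 for Plg and -5.00 for Pon1. The members were chosen with their differences between genotypes known, so those differences are given below as descriptions with their 95% intervals and without a test.

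Alb, the carrier, had the smallest differences between wild type and the lines of the 4 members with each array centred on its median, but not under every scaling. Its log2 ratio was -5.15, -4.68, -5.07 and -4.75 on wild-type arrays 1 to 4. It was -5.47, -4.70, -4.63 and -5.32 on the Cx43 null arrays and -5.38, -4.60, -5.92 and -5.44 on the Cx43 heterozygous arrays. The Cx32 null arrays gave -5.33, -3.95, -3.60 and -5.80. The values of every line overlapped those of wild type, and the Cx32 null arrays spread most, with an SD of 1.06 against 0.23 in wild type. The difference from wild type was -0.12 (SE 0.39, 95% interval -0.95 to 0.71) in Cx43 null, -0.43 (SE 0.39, -1.25 to 0.40) in Cx43 heterozygous and 0.24 (SE 0.39, -0.59 to 1.07) in Cx32 null brain, and each of these intervals includes 0. The first 2 differences were above 0 under quantile normalization and cyclic loess, and under cyclic loess the Cx32 null difference of 1.59 was the largest in size of the 4 members.

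Hpx, the heme scavenger, gave -1.57, -4.04, -3.68 and -4.81 in wild type. It gave -5.01, -6.38, -6.14 and -6.94 in Cx43 null and -6.60, -5.30, -7.88 and -7.74 in Cx43 heterozygous brain. Of the Cx32 null arrays, replicate 1 had no value and the others gave -3.97, -5.24 and -7.45. Every array of both Cx43 lines lay below every wild-type array, while the Cx32 null arrays overlapped wild type and spanned the widest range of the lines. The difference was -2.59 (SE 0.75, 95% interval -4.17 to -1.02) in Cx43 null, -3.35 (SE 0.75, -4.93 to -1.78) in Cx43 heterozygous and -2.03 (SE 0.81, -3.73 to -0.33) in Cx32 null brain. As folds these are 6.03, 10.2 and 4.09 times lower. Wild-type replicate 1 was the highest of its group, and without it the Cx43 null difference was -1.94. Without Cx32 null replicate 4 the Cx32 null difference was -1.08, and under cyclic loess it was -0.50.

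Plg, the zymogen of plasmin, was the member nearest to the reference in wild type, at -2.88, -1.21, -1.43 and -1.39. Of the Cx43 null arrays, replicate 1 had no value and the others gave -3.11, -3.25 and -3.77. The Cx43 heterozygous arrays gave -5.26, -4.01, -5.47 and -4.52. The Cx32 null arrays gave no value for replicate 1 and -4.20, -4.73 and -3.32 for the rest. All values of the 3 lines lay below all wild-type values. The difference was -1.65 (SE 0.43, 95% interval -2.56 to -0.74) in Cx43 null, -3.09 (SE 0.40, -3.93 to -2.24) in Cx43 heterozygous and -2.36 (SE 0.43, -3.27 to -1.45) in Cx32 null brain, or 3.14, 8.49 and 5.13 times lower. Wild-type replicate 1 was here the lowest of its group, where for Hpx and Pon1 it was the highest.

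Pon1, the lipoprotein-bound esterase, gave -1.92, -3.63, -4.30 and -4.45 in wild type on the spot that had enough values to be tested. The Cx43 null arrays gave -4.39, -4.67, -4.49 and -5.96. The Cx43 heterozygous arrays gave no value for replicate 1 and -6.11, -7.86 and -6.97 for the rest. The Cx32 null arrays gave no value for replicate 1 and -4.57, -5.08 and -5.63 for the others. The Cx43 heterozygous and Cx32 null values lay below all wild-type values, and 1 Cx43 null array lay just above the lowest wild-type array. The difference was -1.30 (SE 0.51, 95% interval -2.39 to -0.22) in Cx43 null, -3.41 (SE 0.55, -4.58 to -2.23) in Cx43 heterozygous and -1.52 (SE 0.55, -2.69 to -0.35) in Cx32 null brain. Without wild-type replicate 1, the Cx43 null difference was -0.75 and the Cx32 null difference -0.97.

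The second Pon1 spot had 7 of 16 values and did not pass the filter of 3 values in every group. It gave -2.20, -3.40 and -2.08 on wild-type arrays 1, 3 and 4, and -2.42, -3.32 and -3.13 on Cx43 null arrays 1 to 3. It gave -3.14 on Cx43 heterozygous array 2 and nothing on the Cx32 null arrays. The wild-type and Cx43 null values overlapped. On the 7 arrays that measured both spots, the second was higher on 6, by 1.52 on average. Over the 3 wild-type and 3 Cx43 null arrays with both spots, the Cx43 null difference was -0.96 on the first and -0.40 on the second. The 2 spots of this gene thus gave the same sign and different sizes.

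**Figure D1:**
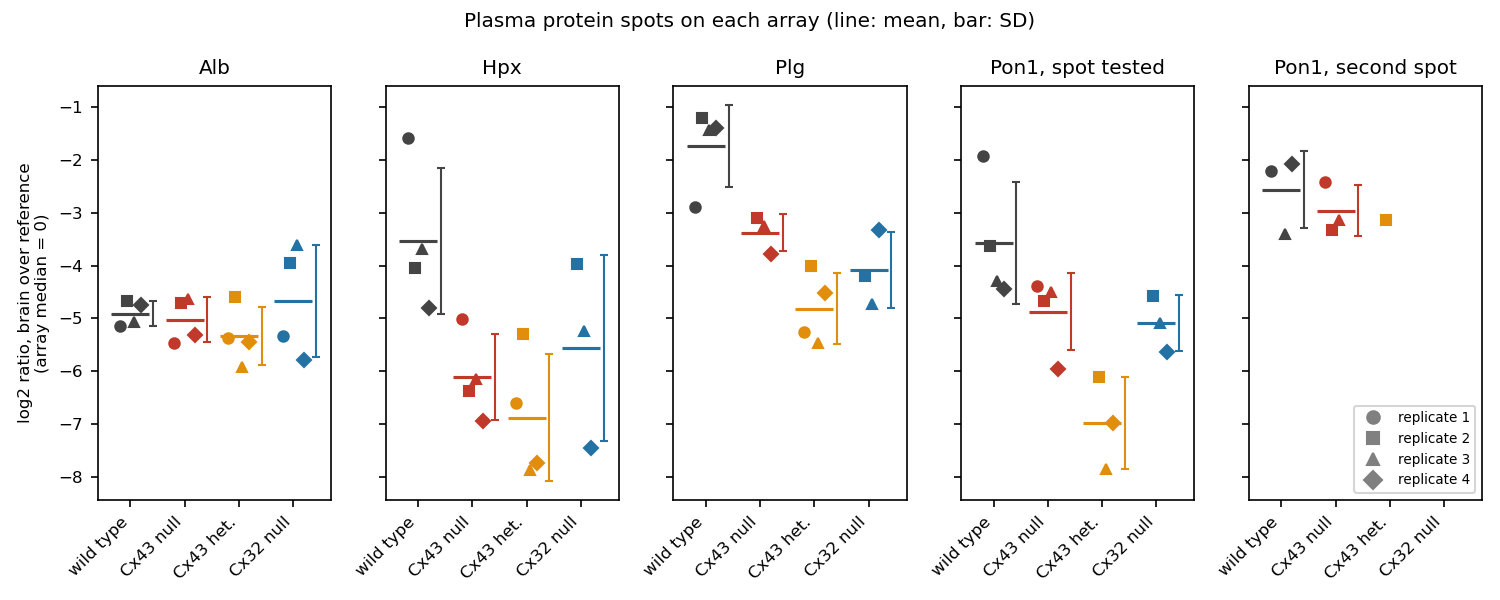
Log2 ratio of brain over reference (vertical axis, array median at 0) for each of the 5 spots, by genotype; each symbol is 1 array and its shape the replicate number, lines are group means and bars are SD, drawn where a group has at least 2 values. Alb arrays of all 4 genotypes overlap, while for Plg the lines lie at -3.11 or lower and wild type at -2.88 or higher.

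Set against wild type, 2 of 4 members (Hpx and Plg) had every Cx43 null array below every wild-type array, where 6.26% of all 14292 transcripts did. The same held for 3 of 4 members (Hpx, Plg and Pon1) in Cx43 heterozygous brain, against 17.4% of transcripts, and for 2 of 4 (Plg and Pon1) in Cx32 null brain, against 14.6%. The members were picked for these contrasts, so nothing is read from the shares. All 3 comparisons use the same 4 wild-type arrays.

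**Figure D2:**
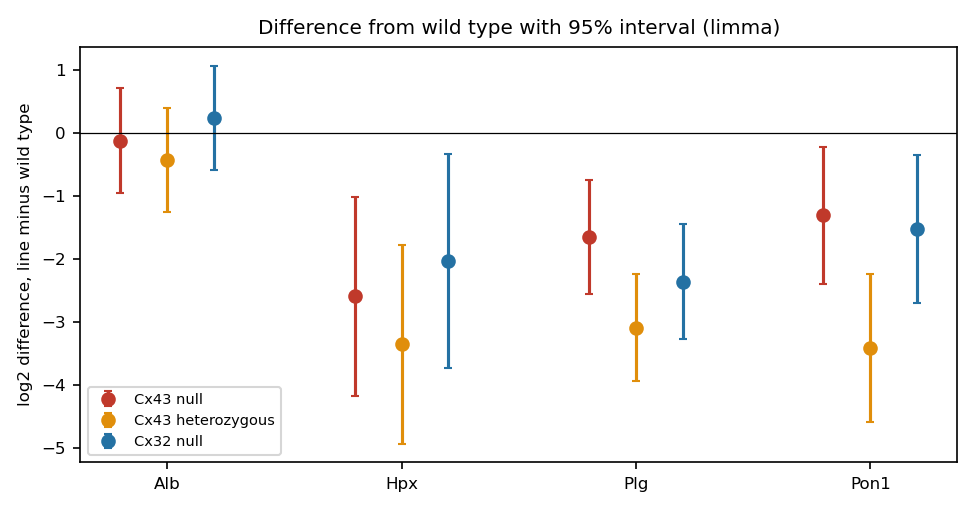
Difference of the mean log2 ratio from wild type (vertical axis) for the 4 members in each line, with 95% intervals from limma as bars. The intervals of Alb include 0 in all 3 lines, and those of Hpx, Plg and Pon1 lie below 0.

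The order of the genotypes was the same for Plg and Pon1 and differed for the others. For Plg, means ran from -1.73 (SD 0.78) in wild type through -3.38 (SD 0.35) in Cx43 null and -4.09 (SD 0.72) in Cx32 null to -4.81 (SD 0.67) in Cx43 heterozygous brain. The Cx43 heterozygous arrays lay below all Cx43 null arrays, by 1.44 (95% interval 0.53 to 2.35), and the arrays of both Cx43 lines overlapped those of Cx32 null. For Pon1, means ran from -3.57 (SD 1.16) in wild type through -4.88 (SD 0.73) in Cx43 null and -5.09 (SD 0.53) in Cx32 null to -6.98 (SD 0.87) in Cx43 heterozygous brain. The Cx43 heterozygous arrays lay below all arrays of both null lines, by 2.10 (95% interval 0.93 to 3.28) and by 1.89 (difference -1.89, 95% interval -3.14 to -0.64), and the 2 null lines overlapped. For Hpx, the means of -3.53 (SD 1.38) in wild type, -5.56 (SD 1.76) in Cx32 null, -6.12 (SD 0.81) in Cx43 null and -6.88 (SD 1.20) in Cx43 heterozygous brain came in that order, and all 3 lines overlapped each other. For Alb, the means ran from -4.67 (SD 1.06) in Cx32 null over -4.91 (SD 0.23) in wild type and -5.03 (SD 0.43) in Cx43 null to -5.34 (SD 0.55) in Cx43 heterozygous brain, and neighbours in that order overlapped.

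How the arrays are scaled changed the size of these differences, and the sign of the Alb ones. With the values as deposited, no member difference moved by more than its spread. The median difference of all transcripts in Cx43 heterozygous brain was then 0.15, against -0.02 after centring. Quantile normalization gave Alb differences of 0.38, 0.74 and 1.21 in Cx43 null, Cx43 heterozygous and Cx32 null brain, and cyclic loess gave 0.79, 1.06 and 1.59. Cyclic loess brought the Cx43 heterozygous differences to -1.73 for Hpx, -2.03 for Plg and -1.95 for Pon1. In Cx43 null brain it gave -1.60 for Hpx, -0.92 for Plg and -0.39 for Pon1, the last of which was -0.83 under quantile normalization. In Cx32 null brain it gave -0.50 for Hpx, -1.37 for Plg and -0.11 for Pon1, and quantile normalization gave -1.11, -1.89 and -0.59. Over every alternative and every array left out, all 135 estimates of Hpx, Plg and Pon1 in the 3 lines stayed below 0.

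**Figure D3:**
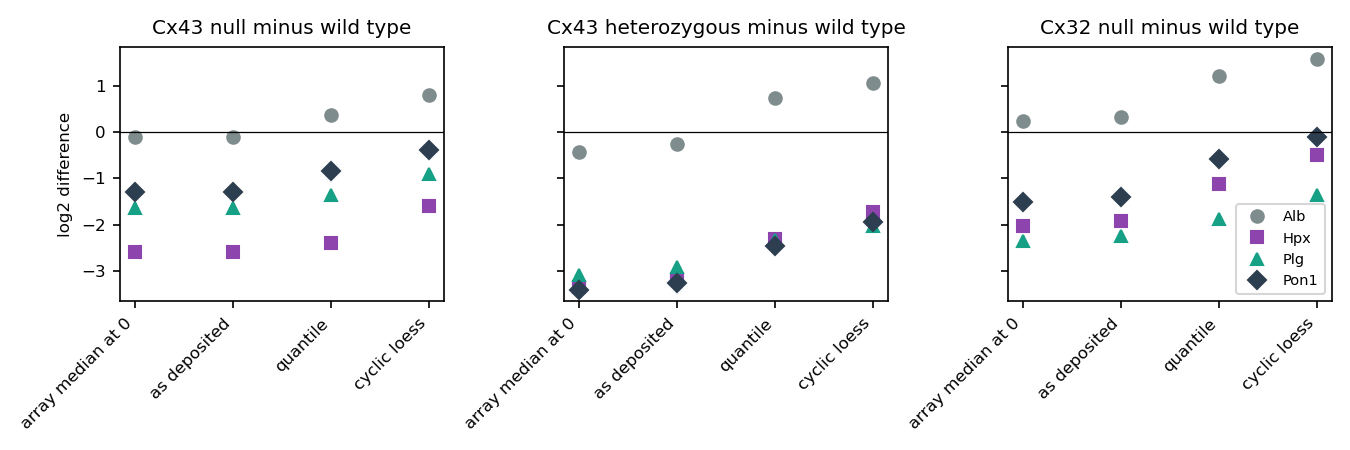
Difference from wild type (vertical axis, log2) of the 4 members in each line under 4 scalings: array median at 0, values as deposited, quantile normalization and cyclic loess. The Alb points pass above 0 under quantile normalization and cyclic loess in all 3 panels, and the other members stay below 0.

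Transcripts as far below the reference as the members were lower more often than transcripts at large in Cx43 heterozygous and Cx32 null brain. This held with each array centred on its median and not under cyclic loess. Among 126 other transcripts whose mean of the 4 group means lay under -3, 12.7% were lower in Cx43 null brain by limma at a Benjamini-Hochberg adjusted p under 0.05, against 6.43% of all transcripts. The share was 50.8% against 17.5% in Cx43 heterozygous brain and 40.5% against 14.3% in Cx32 null brain. Of these 126, 0 were higher by limma in Cx43 null and 0 in Cx43 heterozygous brain (also 0 at an unadjusted p under 0.05), and 1 in Cx32 null brain. The median of this class on an array lay between -3.56 and -2.85 in wild type and at or below -3.68 on every array of the lines. That mean is made up of the lines in 3 of its 4 parts, so low values in the lines favour entry to the class. A class taken on the wild-type mean alone, chosen after seeing the data, held 85 transcripts under -3, of which 4.71% were lower in Cx43 null, 34.1% in Cx43 heterozygous and 27.1% in Cx32 null brain. In Cx43 null brain that share is not above the background of 6.43%. This choice leans the other way, since low wild-type values favour entry and make falls in the lines smaller. The shares are therefore no neutral check. The median difference of this class was -0.41 in Cx43 null, -0.61 in Cx43 heterozygous and -0.57 in Cx32 null brain. The array medians of this class lay between -4.01 and -3.57 in wild type and at or below -3.97 in the lines, so that wild type and lines overlapped. The part of these shifts in the members' differences was not tested. Taken anew under quantile normalization, the class under -3 had shares of 5.98%, 12.8% and 15.4%, against 4.69%, 14.3% and 11.3% of all transcripts. Taken anew under cyclic loess, its shares were 1.71%, 5.98% and 9.40%, against 5.31%, 15% and 12.6%. These classes need not hold the same 126 transcripts.

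**Figure D4:**
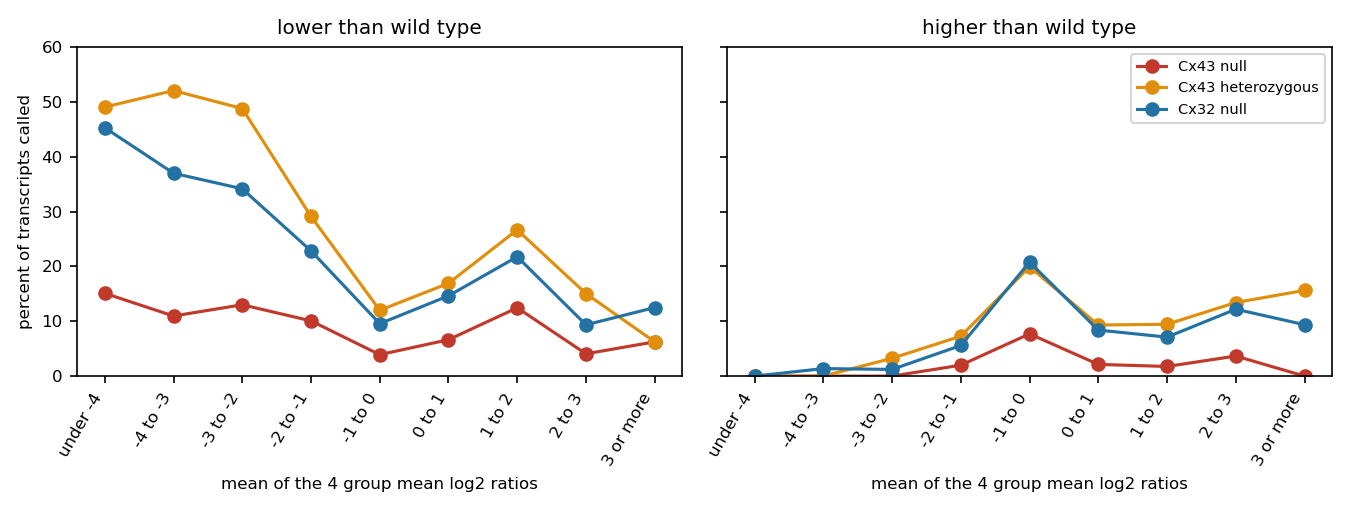
Percent of transcripts called lower (left) and higher (right) than wild type by limma, against the mean of the 4 group mean log2 ratios in 9 bins, for the 3 lines. Since 3 of the 4 means are of the lines, low values in the lines favour the low bins. In Cx43 heterozygous brain 49.1% of the 53 transcripts under -4 and 16.9% of the 5337 between 0 and 1 were lower.

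The other plasma protein genes were taken from 5 lists by role, with 99 genes, of which 55 had a spot and 42 could be tested. In Cx43 null brain 3 of 42 fell (7.14%, background 6.43%) and 3 rose (7.14%, background 4.37%), with a median difference of -0.34 against 0.01 over all transcripts. In Cx43 heterozygous brain 14 fell (33.3%, background 17.5%) and 6 rose (14.3%, background 13.5%), with a median of -0.18 against -0.02. In Cx32 null brain 11 fell (26.2%, background 14.3%) and 4 rose (9.52%, background 13.1%), with a median of -0.42 against -0.03. The balance depended on the scaling. Cyclic loess gave 7 lower and 13 higher in Cx43 heterozygous and 6 lower and 8 higher in Cx32 null brain. Of all 14292 transcripts it gave 2139 lower and 2274 higher, and 1807 and 1930, in these lines. Quantile normalization gave 9 lower and 8 higher in each. Of all transcripts it gave 2043 lower and 1868 higher in Cx43 heterozygous and 1617 and 1833 in Cx32 null brain. Calls in Cx43 null brain were few and rested on single arrays: without Cx43 null replicate 3, 0 of the list genes were lower by limma, and 85 of all transcripts, against 919.

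Among carriers and acute phase proteins, 10 were tested and Cp, the copper-carrying ferroxidase ceruloplasmin, fell in all 3 lines. Cp lay between -1.34 and 0.46 on the wild-type arrays, and differed by -1.26 (SE 0.32, limma adjusted p = 0.0243) in Cx43 null, -1.52 (SE 0.32) in Cx43 heterozygous and -1.34 (SE 0.32) in Cx32 null brain, with every line's arrays below every wild-type array. The Cx43 null call of Cp held in 5 of the 8 fits with an array left out. Hamp, the iron-regulating hormone hepcidin, fell by 1.86 in Cx43 heterozygous brain (SE 0.49, limma adjusted p = 0.0115). It did not pass under quantile normalization (-0.80, limma adjusted p = 0.192), under cyclic loess (-0.49, limma adjusted p = 0.416) or without Cx43 heterozygous replicate 3 (-1.46, limma adjusted p = 0.0558). Igfbp1, which binds insulin-like growth factors, rose by 0.82 there (SE 0.23, limma adjusted p = 0.0136), and did not pass without wild-type replicate 3 (0.66, limma adjusted p = 0.0551). Afp, the fetal relative of albumin, was chosen after its values were seen. It stood above the reference, at 3.20 in wild type, and differed by -0.69, -0.51 and -0.41 in Cx43 null, Cx43 heterozygous and Cx32 null brain, none of which passed.

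Among 10 coagulation genes, Kng1, the kininogen precursor of bradykinin, differed by -2.04 (SE 0.48, limma adjusted p = 0.00508) in Cx43 heterozygous and by -2.23 (SE 0.48, limma adjusted p = 0.00418) in Cx32 null brain, and fell in both. Under cyclic loess it was -0.65 in Cx43 heterozygous brain, which did not pass (limma adjusted p = 0.163), and -0.98 in Cx32 null brain, which did (limma adjusted p = 0.0482). Serpinf2, the plasmin inhibitor alpha-2-antiplasmin that acts on the product of Plg, fell in Cx32 null brain by 2.22 on average (SE 0.61, limma adjusted p = 0.0138). Its Cx32 null arrays gave -1.98, -5.71, -5.13 and -6.20, of which the first lies above the wild-type values of -2.78 to -2.07. It did not pass under cyclic loess (-1.41, limma adjusted p = 0.0636) or without Cx32 null replicate 4 (-1.74, limma adjusted p = 0.0508). By limma, 0 of 10 coagulation genes fell in Cx43 null (3 at an unadjusted p under 0.05), 3 in Cx43 heterozygous and 3 in Cx32 null brain, and 0 rose in each (0 also at an unadjusted p under 0.05). The shares that fell were 0%, 30% and 30%, against backgrounds of 6.43%, 17.5% and 14.3%.

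Among 7 protease inhibitors, Serping1, the C1 inhibitor of the complement and contact systems, fell in all 3 lines. It gave -0.10, -0.59, -1.33 and -1.45 in wild type and -1.42, -2.49, -3.55 and -3.11 in Cx43 null brain, which overlap by 1 array. It lay between -3.66 and -3.25 in Cx43 heterozygous and between -3.30 and -2.87 in Cx32 null brain, below all wild-type arrays. The differences were -1.78, -2.63 and -2.25 (SE 0.36 each; limma adjusted p = 0.0109, 0.000168 and 0.000809). Pzp, a broad protease-trapping plasma protein, fell by 2.14 in Cx43 heterozygous and by 1.81 in Cx32 null brain (SE 0.40 each). Under cyclic loess neither difference of Pzp passed, at -0.69 (limma adjusted p = 0.0973) and -0.50 (limma adjusted p = 0.241), and under quantile normalization the Cx32 null one, at -0.89, did not (limma adjusted p = 0.0682). A2m, of the same family, rose by 1.27 and 0.75 in those lines (SE 0.25 each), and the Cx32 null call held in 3 of the 8 fits with an array left out. Itih4, an inter-alpha-trypsin inhibitor chain, rose by 0.67 in Cx43 null and by 1.16 in Cx32 null brain, but its spot lies in a stretch of the table where wild-type replicates 1 and 4 were out of step with the rest. The Cx43 null call of Itih4 held in 2 of the 8 fits with an array left out.

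Among 7 lipoprotein genes, the relative of a member moved the other way: Pon3, a second paraoxonase, rose by 0.68 in Cx43 null, 0.70 in Cx43 heterozygous and 0.74 in Cx32 null brain (SE 0.20 each; limma adjusted p = 0.0393, 0.0137 and 0.0127), with arrays that overlapped wild type in each line. The Cx43 null call of Pon3 held in 2 of the 8 fits with an array left out. Apoc1, an apolipoprotein that inhibits lipoprotein uptake, had the largest differences of the named plasma genes, at -3.81, -4.23 and -4.23 (SE 0.94 each), and all 3 passed. Its wild-type arrays gave -5.49, 0.25, 0.43 and 0.79, so replicate 1 lay with the lines and the other 3 stood above them. That spot lies in a stretch where wild-type replicate 4 was out of step with the rest. The SD of Apoc1 was 3.00 in wild type and 0.51 to 0.77 in the lines, while the SE of 0.94 takes 1 spread for all groups. The Cx43 null call of Apoc1 held in 5 of the 8 fits with an array left out. A second Apoc1 spot, with too few values to be tested, gave -3.97, -3.44, -4.55 and -3.05 in wild type and -4.53, -3.60, -4.66 and -5.81 in Cx43 null brain, with overlap. It gave -5.61, -5.00, -5.47 and -4.65 in Cx43 heterozygous brain, all below the wild-type values, and no value in Cx32 null brain.

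Among 8 complement genes, C6, a subunit of the membrane attack complex, rose by 0.66 in Cx43 null, 0.86 in Cx43 heterozygous and 0.89 in Cx32 null brain (SE 0.19 each; limma adjusted p = 0.0361, 0.00326 and 0.00372). The Cx43 null call of C6 held in 2 of the 8 fits with an array left out. Masp1, a protease of the lectin pathway, rose by 0.98 in Cx43 heterozygous brain (SE 0.24, limma adjusted p = 0.0067). In that line 3 of the 8 complement genes fell (37.5%, background 17.5%) and 2 rose (25%, background 13.5%). In each line 5 of the 8 lay below wild type, with median differences of -0.33 in Cx43 null, -0.17 in Cx43 heterozygous and -0.33 in Cx32 null brain.

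Liver enzymes, the nearest other hepatocyte list, had 24 tested genes. Of these 3 fell in Cx43 null (12.5%), 11 in Cx43 heterozygous (45.8%) and 7 in Cx32 null brain (29.2%), and by limma 0, 1 and 0 rose (1 in each line at an unadjusted p under 0.05). The backgrounds are those given for the plasma lists. Cyp2d9, a cytochrome P450, fell in all 3 lines, with differences of -1.99, -3.09 and -2.99 in Cx43 null, Cx43 heterozygous and Cx32 null brain (SE 0.45 each), with no overlap with wild type. Rdh7, a retinol dehydrogenase, differed by -1.57 in Cx43 null and -3.17 in Cx43 heterozygous brain and fell in both. Its Cx43 null call held in 3 of the 8 fits with an array left out. That call did not pass under quantile normalization (-1.19, limma adjusted p = 0.0643) or cyclic loess (-0.75, limma adjusted p = 0.138). Fah, the last enzyme of tyrosine breakdown, fell by 2.10 in Cx43 heterozygous and by 1.69 in Cx32 null brain. Bhmt, which remethylates homocysteine, fell in the same lines, from a wild-type mean of -4.25 to means of -6.25 and -6.09. These differences went to -0.90 and -0.77 under quantile normalization, and to -0.40 (limma adjusted p = 0.14) and -0.38 (limma adjusted p = 0.174) under cyclic loess, where neither passed. In Cx32 null brain Gnmt, a glycine methyltransferase, and Adh1, an alcohol dehydrogenase, both fell, with differences of -1.42 (SE 0.25) and -1.41 (SE 0.29), which were -0.71 and -0.69 under cyclic loess and passed there. Hsd11b1, which activates glucocorticoids, differed by -2.16 in Cx43 heterozygous brain and passed. Wild-type replicate 4 was at 1.94 and the other wild-type arrays between -2.96 and -1.99, and without replicate 4 the difference was -1.03. The Hsd11b1 call held in 5 of the 8 fits with an array left out and under neither quantile normalization nor cyclic loess. Ugt2b36, a glucuronosyltransferase, rose by 0.89 there, a call that held in 1 of 8 such fits. Cyp4a14, a fatty acid hydroxylase, fell by 0.95 in Cx43 null brain, a call that held in 3 of 8 such fits and under neither quantile normalization nor cyclic loess. The spot of Hsd11b1 and 1 spot each of Bhmt and Cyp4a14 lie in such stretches of wild-type replicate 4. Under cyclic loess the Cx43 heterozygous count was 3 lower and 5 higher of 24, against 2139 lower and 2274 higher of 14292 transcripts. Of the liver transcription factors listed, 2 could be tested, and Cebpa, the C/EBP-alpha gene, fell by 1.36 in Cx43 heterozygous and by 1.18 in Cx32 null brain. The other, Nr5a2, had a mean above wild type in all 3 lines and passed in none, so the list was split.

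**Figure D5:**
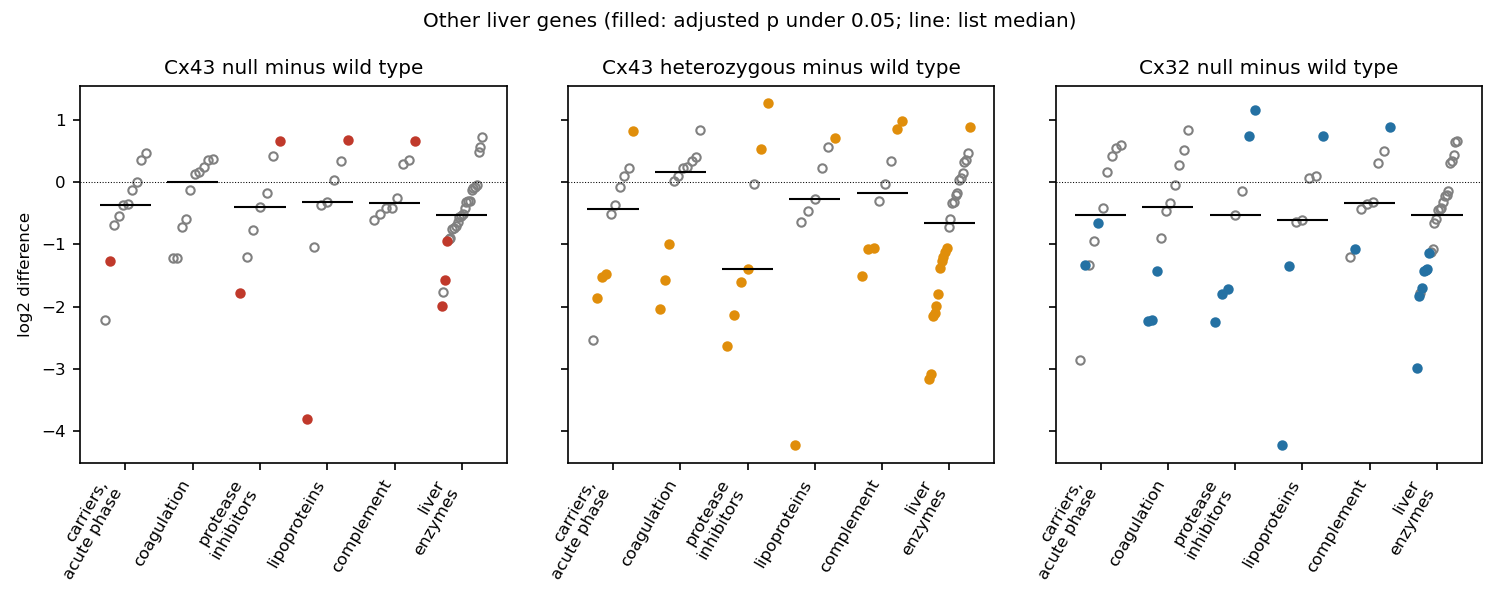
Difference from wild type (vertical axis, log2) of each tested gene of the 5 plasma protein lists and the liver enzyme list, 1 panel per line; filled points passed limma at an adjusted p under 0.05 and lines are list medians. The lowest point of the lipoprotein list in each panel is Apoc1, at -3.81 in Cx43 null brain and -4.23 in the other lines.

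Genes of the other adult tissues in the reference were counted in the same way. Of 39 tested genes of heart, kidney, lung, stomach, spleen and gonad, 3 were lower in Cx43 null (7.69%, background 6.43%), 9 in Cx43 heterozygous (23.1%, background 17.5%) and 11 in Cx32 null brain (28.2%, background 14.3%). In the same order 2, 4 and 3 were higher (5.13%, 10.3% and 7.69%, against backgrounds of 4.37%, 13.5% and 13.1%). The same backgrounds hold for the shorter lists below. The lists of single tissues are short, and differences among them were not tested. Of 7 heart genes, by limma 0, 5 and 5 were lower (3, 5 and 5 at an unadjusted p under 0.05). Of 6 kidney genes, 0 were lower in each of the 3 lines (0 also at an unadjusted p under 0.05) and 2, 3 and 3 were higher. The red blood cell list, given because plasma comes with blood, had 8 tested genes. By limma 0 of these fell in Cx43 null (3 at an unadjusted p under 0.05), 4 in Cx43 heterozygous and 2 in Cx32 null brain, while 1, 2 and 1 rose. The median of that list on an array lay between -1.55 and -0.47 in wild type, -2.48 and -1.16 in Cx43 null, -2.33 and -1.84 in Cx43 heterozygous and -1.94 and -1.28 in Cx32 null brain. The choroid plexus list of 7 tested genes had array medians between -0.62 and -0.41 in wild type and between -0.83 and -0.07 in the lines, and 1 gene fell in each line while 0, 3 and 1 rose in Cx43 null, Cx43 heterozygous and Cx32 null brain (3, 4 and 2 rose at an unadjusted p under 0.05 by limma). The microglia list of 8 had medians between -0.91 and -0.62 in wild type and between -1.65 and -0.80 in the lines. Of its 8 genes 3 fell in Cx43 null, 4 in Cx43 heterozygous and 4 in Cx32 null brain, or 37.5%, 50% and 50%, and by limma 0, 2 and 1 rose (2, 2 and 1 at an unadjusted p under 0.05). Neuronal medians, over 12 genes, lay between 1.98 and 2.48 in wild type, 1.94 and 2.70 in Cx43 null and 1.71 and 2.15 in Cx43 heterozygous brain. In Cx32 null brain they lay between 1.60 and 1.87, below all wild-type arrays. By limma 0, 2 and 3 of the 12 fell in Cx43 null, Cx43 heterozygous and Cx32 null brain (1, 2 and 6 at an unadjusted p under 0.05). Endothelial medians, over 6 genes, lay between -0.65 and -0.05 on all arrays, and 0 of the 6 fell by limma in Cx43 null, Cx43 heterozygous or Cx32 null brain (0, 1 and 2 at an unadjusted p under 0.05). The part of these cell types in the members' differences was not tested.

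The named genes whose profile over the 16 arrays lay nearest to the members' mean profile were sought among 6758 genes with a value on every array, each profile centred on its own mean. The nearest was Wfdc2, a secreted protein with a protease inhibitor fold, at a root mean square difference of 0.46. It was followed by Gprc5a, an orphan receptor, at 0.47, Bcat2, which transaminates branched-chain amino acids, at 0.47, Akr1a1, an aldehyde reductase, at 0.49, Abhd10, a hydrolase, at 0.50, and Actn2, the alpha-actinin of muscle, at 0.50. Over all compared genes the median was 1.03, and the members themselves lay at 0.54 (Pon1), 0.82 (Hpx), 0.85 (Plg) and 0.90 (Alb). The members form the mean they are set against here, so their distances are not like those of other genes. On Cx32 null replicate 1 that mean is Alb alone. The nearest genes differed in level: the wild-type mean was 1.73 for Akr1a1, 0.06 for Abhd10 and -2.19 for Actn2. None of the 6 is in the plasma protein or liver enzyme lists. They were chosen by this likeness, so their differences between genotypes are not given as results.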

How the data were processed

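Members and gene lists were chosen with earlier results of these data known. The authors deposited 1 log ratio per spot and array, read here as log2; per the labels, brain carried Cy3 and the reference Cy5, except that only the Cy5 of the reference is given for wild-type replicates 3 and 4, while log base, numerator, background correction, normalization and the reason for empty cells are not given in the sources used here. No intensities were used, so signal over background is unknown, and the 4 arrays per group limit the precision. Symbols came from the platform annotation and were updated by gene identifier: 18511 of 28704 spots have 1 symbol (18267 updated), 937 several and 9256 none. Each array was centred on its median, a spot was kept with at least 3 of 4 values in every group (19951 spots), and kept spots of 1 gene were averaged, which gave 14292 transcripts (8654 named genes).

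Group means over all 16 arrays were fitted with limma 3.58.1 in R 4.3.3 (lmFit, eBayes, two-sided), and all adjusted p-values printed are Benjamini-Hochberg values from limma over the 14292 transcripts, called under 0.05. The fit was tested on simulated data. Because the labels do not name separate animals, p-values measure only the spread between these samples. The fit takes 1 spread per transcript for all 4 groups, although the median SD was 0.39 in wild type and 0.20 to 0.27 in the lines. Where wild type spreads more than the lines, SEs and intervals can be narrower than its own arrays would give. The lists cover plasma carriers, coagulation, inhibitors, lipoproteins and complement, liver enzymes and liver transcription factors, 6 reference tissues, red blood cells, choroid plexus, endothelium, microglia and neurons. Genes named are the members, the 6 nearest profiles, and, from the plasma lists together and from the enzyme list, up to 5 passing genes with the largest fall and rise per line. Afp, Cebpa and the additional spot of Apoc1 were named after their values were seen. Alternatives were 3 other scalings, stricter and looser filters on empty cells, fits of 2 groups alone, a replicate block and each array left out. Of 2 chosen after seeing the data, 1 took the transcripts far below the reference on the wild-type mean alone and 1 left out spots in stretches where an array did not follow the others (local r under 0.5 over a spot and its 50 neighbours on either side).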

Additional observations from a re-analysis of the deposited data

Results flagged for a closer look

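Across 47 checks of a group for an array standing far from the other 3, 4 stood out, and chance alone gives about 1 in 20. Plg in wild-type replicate 1 was -2.88, against -1.43 to -1.21 on the other wild-type arrays. The median of the red blood cell list in Cx43 null replicate 4 was -2.48, against -1.20 to -1.16. The median of the choroid plexus list in wild-type replicate 1 was -0.41, against -0.62 to -0.60. The neuron list median in Cx43 null replicate 1 was 2.70, against 1.94 to 2.06.

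Of the 22 plasma and enzyme genes named above for their differences from wild type, 3 differed in limma's own contrasts of the lines. Of all 14292 transcripts, 98 were called lower and 110 higher in Cx43 null than in Cx43 heterozygous brain. Against Cx32 null brain, 2 were lower and 10 higher in Cx43 null brain. In Cx43 heterozygous brain, 47 were lower and 129 higher than in Cx32 null brain. Igfbp1 was lower in Cx43 null than in Cx43 heterozygous brain, with a difference of -1.19 (adjusted p = 0.0112) and no overlap. Bhmt was higher in Cx43 null than in Cx43 heterozygous brain by 1.35 (adjusted p = 0.0227). Serpinf2 was higher in Cx43 heterozygous than in Cx32 null brain by 3.06 (adjusted p = 0.0150), with Cx32 null replicate 1 at -1.98 beside -5.13 to -6.20 on the other 3.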

How the results depend on the processing

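Hpx, Plg and Pon1 kept their direction in all 135 alternative estimates, some of which repeat the main estimate by construction. Their size moved most under quantile normalization and cyclic loess. Alb differences under quantile normalization were 0.38 in Cx43 null, 0.74 in Cx43 heterozygous and 1.21 in Cx32 null brain, and under cyclic loess 0.79, 1.06 and 1.59. Plg was -2.33 in Cx43 heterozygous brain under quantile normalization, and under cyclic loess -0.92 in Cx43 null, -2.03 in Cx43 heterozygous and -1.37 in Cx32 null brain. Cyclic loess gave -1.73 for Hpx and -1.95 for Pon1 in Cx43 heterozygous brain. In Cx32 null brain Pon1 was -0.59 under quantile normalization and -0.11 under cyclic loess. The cause was not tested.

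Under quantile normalization, 9 plasma genes were lower in Cx43 heterozygous and 8 higher in Cx32 null brain; 1 enzyme gene was lower in Cx43 null and 7 in Cx43 heterozygous brain; and 2 and 4 reference tissue genes were lower in Cx43 heterozygous and Cx32 null brain. The share lower among transcripts under -3 in that scaling was 5.98% in Cx43 null, 12.8% in Cx43 heterozygous and 15.4% in Cx32 null brain. Of all transcripts, 4.69%, 14.3% and 11.3% were lower there. With arrays centred on their medians and the class taken on the wild-type mean alone, 4.71% were lower in Cx43 null brain. In Cx43 heterozygous and Cx32 null brain 34.1% and 27.1% were. Under cyclic loess, 7 plasma genes were lower and 13 higher in Cx43 heterozygous brain, and 6 lower and 8 higher in Cx32 null brain. There 1, 3 and 4 enzyme genes were lower in Cx43 null, Cx43 heterozygous and Cx32 null brain. In the last 2 of these lines, 1 and 2 reference tissue genes were lower. The share under -3 in that scaling was 1.71%, 5.98% and 9.40%, against 5.31%, 15% and 12.6% of all transcripts. As deposited, 62.7% of the calls in Cx43 heterozygous brain were higher, against 43.6% after centring.

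With a value on all 4 arrays of every group, 9829 transcripts were tested, with 29 plasma and 15 enzyme genes among them. Of these, 8 plasma and 7 enzyme genes were lower in Cx43 heterozygous brain, where 19.2% of all transcripts were. Lower reference tissue genes numbered 1 in Cx43 null and 7 in Cx32 null brain. Cyp4a14 in Cx43 null brain, from fewer spots, was 0.10. With at least 2 values, 5 of 46 plasma genes were lower in Cx43 null brain, where 5.25% of all transcripts were. In fits of the 2 groups alone, Cx43 null brain had 0 transcripts lower by limma, and 0 plasma genes lower or higher, 0 enzyme genes, 0 reference tissue genes and 0% of transcripts under -3; Cx32 null brain had 1280 transcripts lower, 4 reference tissue genes and 26.2% of those under -3. Samples with the same replicate number showed little likeness: of 12 same-numbered pairs of a line and wild type, 2 correlated over 0.1 (r from -0.10 to 0.16). Whether the numbers pair the samples cannot be told from this. With the replicate block, 5 plasma, 5 enzyme and 5 reference tissue genes were lower in Cx43 null brain, where 7.05% of all transcripts were.

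With each array left out in turn, the count of transcripts lower in Cx43 null brain ran from 85 (without Cx43 null replicate 3) to 1532 (without wild-type replicate 4). Plasma genes lower there ran from 0 to 6 and higher from 0 to 4, enzyme genes lower from 0 to 7, reference tissue genes lower from 1 to 5, and the share under -3 from 0.8% to 20.3%. In Cx32 null brain reference tissue genes lower ran from 6 to 11 and the share under -3 from 26.0% to 43.1%. Leaving out 1 array gave Hpx differences of -3.02 to -1.94 in Cx43 null, -3.88 to -2.70 in Cx43 heterozygous and -2.82 to -1.08 in Cx32 null brain.

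Of the named plasma and enzyme genes, 0 of 9 passed limma with every array left out in Cx43 null, 12 of 16 in Cx43 heterozygous and 12 of 14 in Cx32 null brain. With the other alternatives included, 0, 9 and 10 passed in every one.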

Other observations

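The spot that follows Alb in the deposited table has no gene name in the annotation used here and gave nearly the same ratios as Alb. Its mean over the 16 arrays was -4.91, and it differed from the Alb spot by 0.31 on average and by at most 1.00 on any array. The spots before and after the other members, and the one before Alb, differed from them by 2.54 to 6.89 on average, over 7 to 15 arrays each, with no shared value for the spot after the second Pon1 spot. Whether the table's order is the order on the slide is not stated, and the pair was picked after its values were seen.

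Empty cells among the lowest spots differed between groups. Among 249 spots with at least 7 values and a mean ratio under -3, 6.22% of cells were empty in wild type, 5.42% in Cx43 null and 24.3% in Cx32 null brain, against 18.4%, 14.9% and 23.6% over all spots. The share ran from 4.02% to 17.7% on the Cx43 heterozygous arrays, against 21.9% over all spots of that group. Among the Cx32 null arrays the share ran from 13.7% to 39.8%, the highest in replicate 1. That array, which has no value for Hpx, Plg and both Pon1 spots, did give one for Alb.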
